A study of Mus musculus with 96 samples.

Results

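The genes described here are 54 genes of the G2 and M phases of the cell cycle, the stretch between the end of DNA replication and cell division. They were chosen by name. These members, and the gene lists and pairs used below, were chosen with earlier results of these data known. All 54 symbols matched 1 row each among the 36205 gene rows of the deposited count table. RNA was sequenced from single mouse embryonic stem cells of the wild-type E14 line, for which the labels give a C57BL/6 background, with RNA and DNA of the same cell parted by the G&T-seq protocol. By the labels, 76 wells received serum/LIF cells, that is, cells cultured with serum and the cytokine LIF, 16 received 2i cells and 4 were left empty. The deposited count table has columns for 61 of the 76 serum/LIF wells, and all 61 cells were analysed. They are of 1 line, 1 genotype and 1 growth condition. The other wells were not analysed here. A sample here is a single cell, with no culture or dish named for it, so all cells together stand for 1 sample of the condition. No test between groups was possible, no p-value is given, and every spread and correlation below describes these 61 cells, which are named by the wells of 1 plate layout and share a growth condition.

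Entry into mitosis is driven by the kinase CDK1 with its B-type cyclins, which rise through G2 and are destroyed at the end of mitosis by the anaphase-promoting complex (APC/C). Between these points chromosomes are condensed, attached to spindle microtubules at their kinetochores and pulled apart, under the control of the Polo and Aurora kinases. Many genes of this programme are transcribed together, late in the cycle, from promoters that bind the MuvB complex through the cell cycle genes homology region (CHR), often beside CCAAT boxes that bind NF-Y. Embryonic stem cells divide fast and spend little time in G1.

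Total counts per cell ran from 2417702 to 6787261 (median 4244480), and 5317 to 10032 genes had a count (median 8404). Levels are CPM, counts relative to the cell's total after TMM scaling, and a count of 0 allows up to 0.447 to 1.24 CPM, depending on the cell (3 counts, for counting error only). The 95 spike-in rows held at most 4 counts in a cell, so RNA content per cell was not measured and a level is a share of the cell's counts. Pou5f1, which encodes the pluripotency factor OCT4, had counts in all 61 cells (lowest 77.5, median 1149, highest 2849 CPM). Of the other stem cell markers, Dppa5a had counts in 60 cells, Utf1 in 57, Sox2 in 54, Nanog in 47, Zfp42 in 42 and Esrrb in 18. Dppa5a alone reached 11294 CPM, and the median of Esrrb was 0. Summed over 7 stem cell markers the level ran from 78.1 to 12463 CPM, while 6 primitive endoderm markers summed to 0 to 213 CPM and 7 fibroblast markers to 0 to 223 CPM, each with a median of 0. The cell in well G03 held the lowest Pou5f1 and stem cell marker sums and the highest fibroblast sum. Nearly all of that fibroblast sum was 1 gene, Col1a2, at 222 CPM. The main results are given with and without G03, together with G09, B06 and F09, the other cells lowest for the members. These 4 were chosen after their values were seen.

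Promoter windows were looked at first, because many members varied together, as shown further on. RefSeq windows on GRCm38.p6, from 250 bases before to 50 after the annotated start, were found for 48 of the 54 members (53 windows); Cdc25c, Aurkb, Tpx2, Dlgap5, Smc4 and Cdca2 were not matched. The core letters of the CHR, TTTGAA on either strand, were present in 35 of the 53 windows (66.04%, 34 genes), against 17.9% of all 32851 windows. CCAAT on either strand was present in 40 windows (75.5%, 37 genes), against 37.4%, and both motifs in 28 windows (27 genes), against 6.95%. Neither motif contains the other, though their ends can share a base. All windows were used as background and were not matched on base composition or expression.

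Up to 120 bases before the RefSeq start are printed for 7 members, 5′ to 3′ on the gene's strand, in lower case with TTTGAA and CCAAT matches (or their reverse complements) in capitals. The first 5 hold both motifs and are shown as examples from several roles. Cenpe and Birc5 are shown for contrast, since their windows hold no TTTGAA, although both varied with the other members as Kif11 did (rho 0.656, 0.627 and 0.632 with a score over the others). The last 26 bases printed for Cdk1, 30 for Ube2c, 9 for Cdc20 and 26 for Cenpe lie within the gene as GENCODE annotates it, and the rest upstream of it.
Cdk1 (chr10:69352913-69353032, minus strand): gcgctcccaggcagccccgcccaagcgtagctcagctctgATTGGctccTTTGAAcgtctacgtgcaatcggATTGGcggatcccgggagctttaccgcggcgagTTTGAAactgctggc
Top2a (chr11:99024190-99024309, minus strand): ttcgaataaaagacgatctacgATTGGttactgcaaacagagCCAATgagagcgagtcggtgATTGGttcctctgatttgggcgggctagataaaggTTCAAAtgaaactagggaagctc
Ube2c (chr2:164769809-164769927, plus strand): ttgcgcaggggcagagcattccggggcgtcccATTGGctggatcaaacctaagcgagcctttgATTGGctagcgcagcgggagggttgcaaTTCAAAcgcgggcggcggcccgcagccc
Kif11 (chr19:37376262-37376381, plus strand): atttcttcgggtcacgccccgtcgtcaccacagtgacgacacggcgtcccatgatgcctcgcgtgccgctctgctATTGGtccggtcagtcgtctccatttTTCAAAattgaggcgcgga
Cdc20 (chr4:118437344-118437463, minus strand): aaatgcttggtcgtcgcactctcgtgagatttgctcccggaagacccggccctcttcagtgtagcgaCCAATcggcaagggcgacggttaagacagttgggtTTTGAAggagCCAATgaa
Cenpe (chr3:135212443-135212562, plus strand): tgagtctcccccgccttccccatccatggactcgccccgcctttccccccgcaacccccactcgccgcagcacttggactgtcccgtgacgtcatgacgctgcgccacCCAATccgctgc
Birc5 (chr11:117849117-117849236, plus strand): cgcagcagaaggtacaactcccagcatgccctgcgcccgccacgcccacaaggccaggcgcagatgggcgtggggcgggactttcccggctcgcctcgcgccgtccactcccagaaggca

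Near the start both motifs were more frequent in member windows than in all windows. Within 50 bases of it, TTTGAA was present in 28 of the 53 windows (52.8%) against 4.94% of all windows, and CCAAT in 31 (58.5%) against 13.6%; this narrower window was chosen after the positions were seen. In Cdk1 the matches to TTTGAA begin 71 and 15 bases before the start, in Top2a, within the printed bases, 23 before, in Ube2c 29 before, in Kif11 19 before and in Cdc20 18 before. Cenpe had a match to CCAAT 12 bases before its start, and Ccnb1 had matches to it 99 and 67 bases before, and neither had TTTGAA. The printed bases of Birc5 hold neither motif. A match is a string of letters and not a shown binding site.

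**Figure D1:**
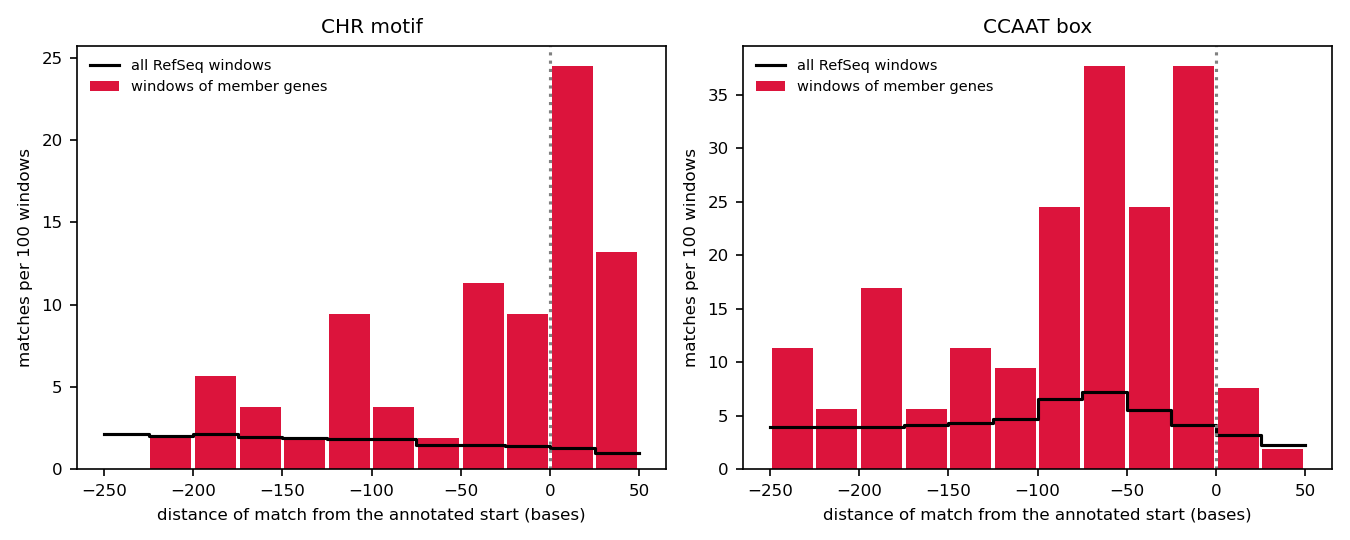
Matches per 100 promoter windows (y axis) in bins of 25 bases by distance from the annotated start (x axis), for the 53 windows of member genes (bars) and all 32851 RefSeq windows (line). The tallest TTTGAA bar of the members is the bin from 0 to 25 bases after the start, with 24.5 matches per 100 windows against 1.31, and their CCAAT matches peak in the 2 bins from -75 and from -25, with 37.7 each against 7.20 and 4.15.

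All 54 members passed the filter on low counts (at least 10 counts in at least 10 cells), which 10868 genes passed. In 8 cells every member had a count, and the median cell held counts for 50 of 54, with a range of 26 to 54. Of the members, 8 had counts in all 61 cells (Cks1b, Cks2, Cdc20, Tubb4b, Hmgb2, Lbr, Cbx5 and Rangap1), among genes of which 13.5% did. Another 7 had counts in fewer than 45 cells. The share of all genes below 45 cells was not counted, so this number is not read as a trait of the members. Nek2, a centrosome kinase, had the fewest (32 cells), followed by Aurkb (35) and Ckap2l (37). Thinning each cell to 2417702 counts cost no member more than 2 cells. Scaled by exon length, the highest median levels were those of Cks1b (696 CPM per kilobase), Cdc20 (331) and the tubulin gene Tubb4b (307), and the lowest those of Nek2 (0.510), Gas2l3 (1.14), Aurkb (3.47) and Cdc25c (3.82). The ranges over cells overlap between all neighbours in this order.

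**Figure D2:**
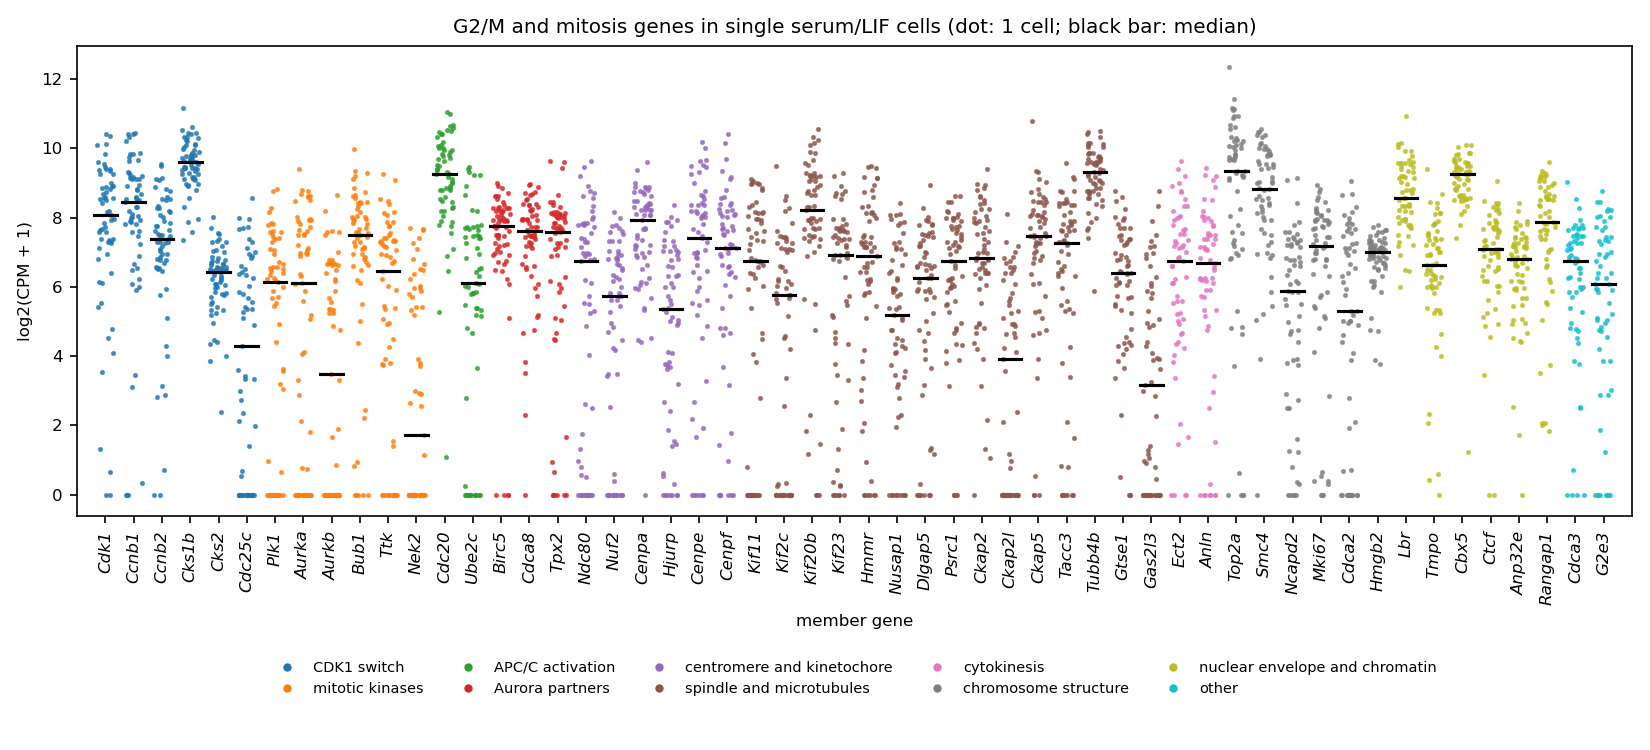
Level of each member gene on the log2(CPM + 1) scale (y axis) in each of 61 serum/LIF cells (dots), with the median over cells (bars); members on the x axis are coloured by role. Cells at 0 form a row along the base in Nek2, Aurkb, Ckap2l and Ube2c, while the cells of Hmgb2 and Cks1b, and of Cbx5 apart from 1 cell, lie within a narrow band.

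The CDK1 switch was measured through the kinase, 2 cyclins, 2 small subunits and a phosphatase. Cdk1 ranged from 0 to 1366 CPM (median 268), with the highest cell in well F07 and 2 cells at 0. Ccnb1, encoding cyclin B1, ranged from 0 to 1408 CPM (median 351) and Ccnb2, encoding cyclin B2, from 0 to 751 CPM (median 166). Both had their highest value in the cell in H09. Cdk1 and Ccnb1 varied together (Spearman rho 0.502 over 61 cells), whereas Ccnb2 had a rho of 0.107 with Cdk1 and 0.147 with Ccnb1. Counts of Ccnb1 are uncertain, since its pseudogene Ccnb1-ps on chromosome 7 was listed with counts in 53 cells (median 3.06, highest 21.2 CPM) and a rho of 0.945 with it. Cks1b and Cks2 encode the CDK-binding subunits CKS1 and CKS2 and were detected in every cell. Cks1b ran from 164 to 2291 CPM (median 783) and Cks2 from 4.28 to 259.5 CPM (median 85.1), with a rho of 0.234 between them. Cdc25c, whose product removes inhibitory phosphates from CDK1, had counts in 43 cells (median 18.8, highest 378 CPM in H03) and overlaps a gene on the opposite strand.

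Some genes of mitotic kinases were at 0 in many cells. So were members of other roles, such as Ckap2l (counts in 37 cells) and Gas2l3 (42). Plk1, the Polo kinase gene, ranged from 0 to 456 CPM (median 69.04, 45 cells with a count), and Aurka, which acts at centrosomes, from 0 to 672 CPM (median 68.04, 44 cells). These genes had a rho of 0.556 with each other. Aurkb, the kinase of the chromosomal passenger complex, had a median of 10.2 CPM and a highest value of 400 CPM in the cell in B03. The spindle checkpoint kinases Bub1 (median 179, highest 1012 CPM) and Ttk (median 87.1, highest 615 CPM) had counts in 56 and 48 cells. The APC/C activator gene Cdc20 was detected in all cells, from 1.14 CPM in B06 to 2137 CPM in B03 (median 618). Ube2c, the ubiquitin-conjugating enzyme that works with the APC/C, had a median of 67.7 CPM, a highest value of 707 CPM in C07 and counts in 49 cells.

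Chromosome and kinetochore genes included some of the widest ranges. Top2a, the topoisomerase that untangles sister chromatids, ran from 0 to 5247 CPM (median 651); the highest cell, in H01, lay above the next at 2744 CPM. Top2a made up the largest share of the members' summed CPM (7.02%, not scaled by length), ahead of Cks1b (6.86%) and Cdc20 (6.12%). Smc4, a condensin subunit, ranged from 0 in D07 to 1520.3 CPM in G01 (median 450). The proliferation marker Mki67, whose protein coats mitotic chromosomes, ran from 0 to 494 CPM (median 146). Cenpe and Cenpf, large kinetochore proteins, reached 1154 and 1357 CPM, both in the cell in B03, with medians of 169 and 139 CPM. By contrast Hmgb2, a DNA-bending chromatin protein, stayed between 12.7 and 221 CPM (median 127). Cdca2 and Dlgap5 lie on chromosome 14, whose share of counts was as low as 1.32% in 1 cell (median 3.06%). Their rho with that share was 0.0123 and -0.0585.

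The spread of each member was set beside genes of like level, as the squared coefficient of variation divided by its trend over mean level. The ratio was at least 2 for 11 of 54 members, against 7.97% of all 10868 genes, and the median ratio was 1.35 against 1.00. Top2a had the highest ratio, 5.89, above 99.8% of genes, and it was 5.32 without the cells in G03, G09, B06 and F09. It was followed by Cenpf (2.94), Cenpe (2.46), the microtubule polymerase gene Ckap5 (2.44), Ccnb1 (2.39), Cdc20 (2.34), Cdk1 (2.33), the kinesin gene Kif20b (2.30), Smc4 (2.28), Ube2c (2.14) and the kinetochore gene Ndc80 (2.13). The Ckap5 value comes with 1 cell, in H01, at 1789.5 CPM against 646 CPM in the next. The same cell held Top2a at 5247 CPM against 2744 CPM in the next. Ratios without H01 were not computed. The lowest ratios were those of Hmgb2 (0.199), Cks2 (0.318), the histone chaperone gene Anp32e (0.520), Cbx5 (0.604) and the survivin gene Birc5 (0.611).

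Members varied together across cells more than other pairs of genes did. Over the 1431 pairs of members the median rho was 0.244 (quartiles 0.134 and 0.369), against 0.014 over the 59051278 pairs of all genes that passed the filter (quartiles -0.080 and 0.108). A rho of at least 0.5 was found for 121 member pairs (8.46%), against 0.0461% of all pairs, and 87 member pairs were below 0. The median was 0.210 in plate rows A to D (33 cells) and 0.275 in rows E to H (28 cells). It was 0.192, with 66 pairs at 0.5 or above, without the cells in G03, G09, B06 and F09. With the share of genes detected regressed out it was 0.235. The background here and for the scores below was drawn from all genes that passed the filter. It was not matched to the members on level or on the number of cells with a count.

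**Figure D3:**
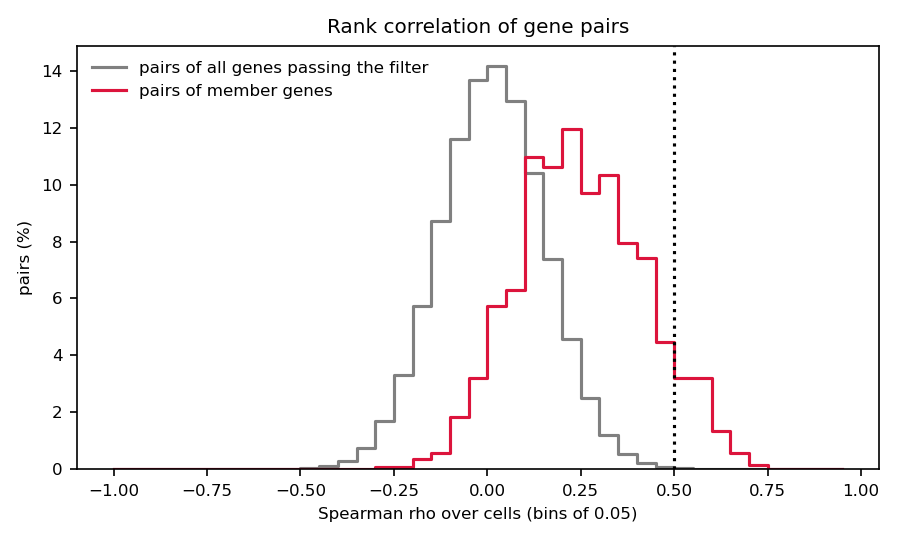
Share of gene pairs (y axis, %) by Spearman rho over 61 cells (x axis, bins of 0.05), for the 1431 pairs of member genes (red) and the pairs of all genes passing the filter (grey); the dotted line marks 0.5. The red curve is shifted to the right, with a median of 0.244 against 0.014.

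The pairs with the highest rho were Kif20b with Smc4 (0.719), Kif20b with Ndc80 (0.714), Kif11 with Top2a (0.681), Kif20b with Ccnb1 (0.666), Kif20b with Nusap1 (0.665) and Cks2 with Ube2c (0.664). Kif20b encodes a kinesin that acts late in mitosis, Kif11 the motor that pushes spindle poles apart, and Nusap1 a microtubule-bundling protein. Ube2c reached 0.5 with 20 other members, Top2a with 18, Kif20b with 17 and Ccnb1 with 16. No pair reached 0.5 for 21 members, among them Ccnb2, Cks1b, Tubb4b, Nuf2 and Hjurp. The lowest pairs were Tacc3 with Anp32e (-0.252) and Nuf2 with G2e3 (-0.231).

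Genes whose proteins act in 1 complex, or directly on each other, had values close to those of member pairs in general. Over 15 such pairs, listed by function, the median rho was 0.234, with 7 above the median of all member pairs and 2 at 0.5 or above (Cdk1 with Ccnb1 and Plk1 with Aurka). Ndc80 and Nuf2, partners in the complex that binds kinetochores to microtubules, had a rho of 0.294. The condensin genes Smc4 and Ncapd2 had 0.0943, and Cenpa, the centromeric histone, had 0.0883 with its chaperone gene Hjurp. In the chromosomal passenger complex Birc5 and Cdca8 had 0.452, while Aurkb had 0.207 with Birc5 and 0.145 with Cdca8. Aurka had 0.434 with Tpx2, its activator on the spindle, Kif23 had 0.382 with Ect2, its partner in cytokinesis, and Tacc3 had 0.228 with Ckap5.

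Each member was then compared with a score over the other 53, the mean of their z-scores of log2(CPM + 1). All 54 values were above 0, from 0.115 to 0.735 with a median of 0.508, and 29 were at least 0.5. Among 10814 genes outside the list, 0.24% reached 0.5 with the score over all members, and their median was 0.0390. The highest values were those of Ube2c (0.735), Top2a (0.733), Cdk1 (0.727), Aurka (0.699), Ccnb1 (0.693), Kif20b (0.666), Cenpf (0.656), Cenpe (0.656), the spindle gene Hmmr (0.652) and Ndc80 (0.650). Without the cells in G03, G09, B06 and F09, 20 members reached 0.5, against 0.166% of other genes, and the median was 0.450. In plate rows A to D 29 members reached 0.5, against 0.610% of other genes. In rows E to H 28 members did, against 0.842%, and 20 members reached it in both.

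Roles differed in how far they followed the score. Of the 6 nuclear envelope and chromatin genes 0 reached 0.5, while 29 of the 48 other members did. The envelope group ran from 0.115 for Cbx5, which encodes the heterochromatin protein HP1 alpha, through the lamin B receptor gene Lbr (0.192), Anp32e (0.210), the lamina gene Tmpo (0.225) and the insulator factor gene Ctcf (0.259), to Rangap1 (0.277). Its highest value was 0.259 without the 4 cells named above. Cbx5 ran from 1.33 CPM in B10 to 1104 CPM in C02 (median 615), and Lbr ran from 63.1 to 1958 CPM (median 382). Of the 15 spindle and microtubule genes 7 reached 0.5, Kif20b, Hmmr, Kif11, Nusap1, Ckap2l (0.607), the depolymerising kinesin gene Kif2c (0.550) and Kif23 (0.509). Psrc1 (0.292), Ckap2 (0.304), Dlgap5 (0.309), Tubb4b (0.320), Ckap5 (0.343), Gas2l3 (0.399), Gtse1 (0.402) and Tacc3 (0.429) did not. In the CDK1 group 4 of 6 reached it, with Cks2 at 0.554 and Cks1b at 0.501. Ccnb2 had the lowest value outside the envelope group, 0.150. Without those 4 cells Cks2 (0.477), Cks1b (0.452), Kif2c (0.495) and Kif23 (0.477) fell below 0.5, and Gas2l3 rose to 0.510.

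Both cytokinesis genes, Ect2 (0.618), an activator of the GTPase RhoA, and the anillin gene Anln (0.558), reached 0.5, as did both APC/C genes. Of the mitotic kinases Aurka, Plk1 (0.563) and Ttk (0.542) did, and Nek2 (0.464), Aurkb (0.429) and Bub1 (0.359) did not. Among centromere and kinetochore genes Cenpa (0.510) joined Cenpf, Cenpe and Ndc80, while Hjurp (0.304) and Nuf2 (0.234) were lower. Birc5 (0.627) and Tpx2 (0.524) reached 0.5 and Cdca8 (0.482) did not. Of the chromosome structure genes Top2a, Mki67 (0.644), Cdca2 (0.587) and Smc4 (0.521) did, and Hmgb2 (0.441) and Ncapd2 (0.290) did not. Cdca3, which promotes entry into mitosis, had 0.539 and the ubiquitin ligase gene G2e3 0.422. Without the cells in G03, G09, B06 and F09, Cdc20 (0.397), Ttk (0.467) and Cenpa (0.453) fell below 0.5. So did Tpx2 (0.440), Smc4 (0.449) and Cdca3 (0.451). Of the 34 genes with TTTGAA in a window 21 reached 0.5 (median 0.524, range 0.150 to 0.735), and of the 14 without it 5 did (median 0.425, range 0.115 to 0.693). The ranges overlap, and the difference was not tested. It was smaller without the cells in G03, G09, B06 and F09. Of the genes with TTTGAA, Cdc20, Ttk, Cenpa, Cdca3, Cks1b, Kif2c and Kif23 then fell below 0.5. Of those without it, Cks2 fell below 0.5 and Gas2l3 rose above it.

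**Figure D4:**
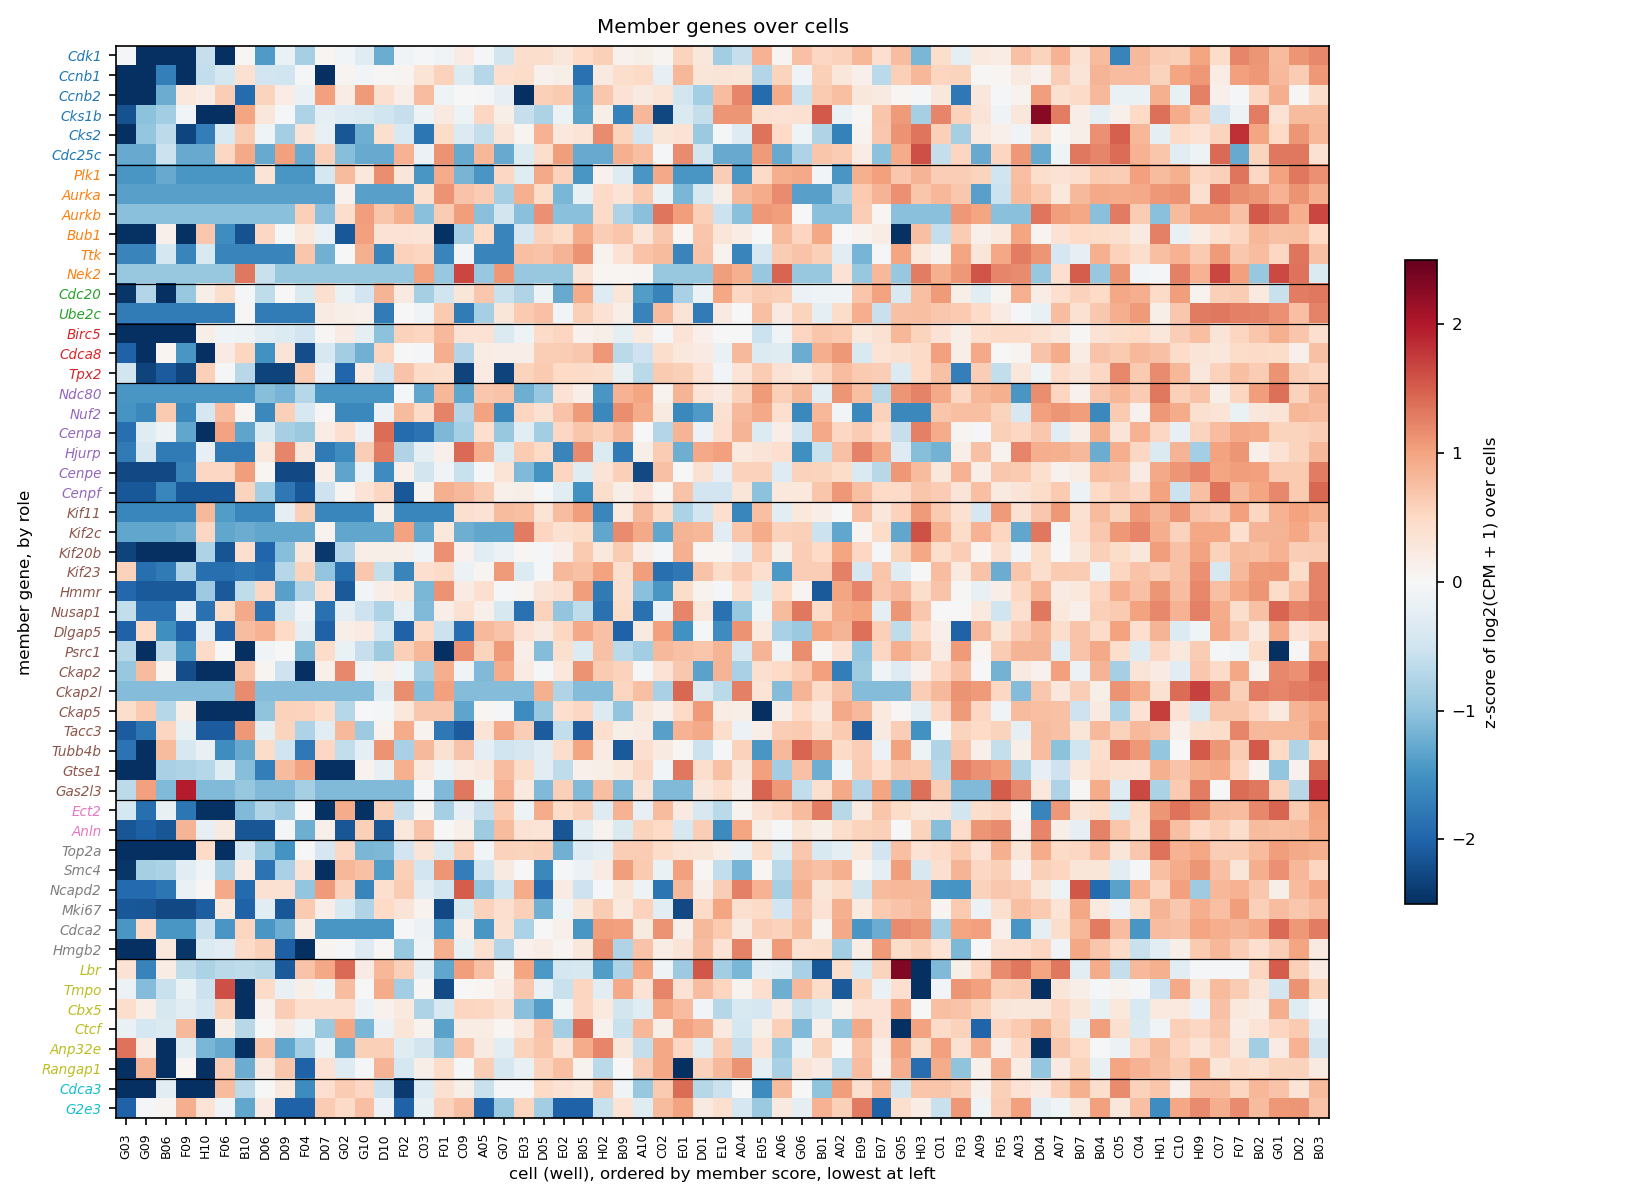
Z-score of log2(CPM + 1) over cells (colour) for the 54 member genes by role (rows) in 61 cells (columns), ordered by the member score with the lowest cell at left. The cells at the far left, in G03, G09, B06 and F09, are low for most members, while Cbx5, near the bottom, stays between 372 and 721 CPM in them. Rangap1, of the same role, falls to 3.17 CPM in G03 and 2.56 CPM in B06.

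The cells formed a range, with a few at its lower end. Summed over all members the level ran from 2955 CPM in G03 to 25526 CPM in H01 (median 10870.4), an 8.64-fold range, which was 4.74-fold without G03, G09, B06 and F09. The member score ran from -1.57 to 0.809, and its lowest values were those of G03 (-1.57), G09 (-1.50), B06 (-1.22), F09 (-1.21) and H10 (-1.06). The highest were those of B03 (0.809), D02 (0.721) and G01 (0.703). Counts for 28, 26, 35 and 31 members were found in G03, G09, B06 and F09. In all 4 of these cells 8 members were at 0: Aurka, Aurkb, Nek2, Ube2c, Birc5, Ndc80, Kif11 and Ckap2l. The 4 cells were picked as lowest for the members, so members at 0 in them follow in part from that choice. The share of all genes at 0 in all 4 was not counted. Over all cells, these 4 included, Nek2 was at 0 in 29, Aurkb in 26, Ckap2l in 24 and Aurka in 17. Kif11 was at 0 in 14, Ndc80 in 13 and Ube2c in 12. For Birc5, an inhibitor of apoptosis and passenger subunit, the 4 cells were the only ones at 0. Top2a was at 0 in 3 of them and at 0.537 CPM in F09, and Cdk1 was at 164 CPM in G03, 1.48 in G09, 0.569 in B06 and 0 in F09. In the same cells Cbx5 was at 721, 575, 372 and 405 CPM, Anp32e at 341, 99.2, 4.83 and 61.7 CPM and Rangap1 at 3.17, 538, 2.56 and 183 CPM. G03 held the highest value of Anp32e and F09 that of Gas2l3 (440.5 CPM).

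These 4 cells were not the shallowest. Their totals were 6597540, 4009822, 3468366 and 3686541 counts in the order G03, G09, B06 and F09, with 8075, 7887, 8474 and 8546 genes detected and a mitochondrial share of 2.17%, 2.33%, 2.60% and 1.65%. Their Pou5f1 levels were 77.5, 436, 1624 and 1405 CPM, so 2 of them had Pou5f1 above the median and 2 below. Their summed fibroblast markers were 223, 57.6, 48.9 and 0 CPM, nearly all from Col1a2 in G03, Pdgfrb in G09 and Thy1 in B06. At the other end, B03, with the highest score, had Pou5f1 at 213 CPM. Its fibroblast and primitive endoderm markers summed to 108 and 112 CPM. In D02 and G01, next by score, Pou5f1 was at 653 and 750 CPM and both sums were 0. Across all cells the score had a rho of 0.257 with the number of genes detected, 0.172 with the total count, -0.240 with the mitochondrial share and -0.0921 with the summed stem cell markers. The part of these quantities in the score was not tested, beyond the regression on genes detected.

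A score with no member in it gave much the same order of cells. Of 53 other mitotic genes, listed by function, 52 were measured, and their mean z-score had a rho of 0.876 with the member score (Pearson r 0.918, 61 cells), or 0.863 (r = 0.894) without the 2 cells farthest from the median member score, G03 and G09. Of the 54 members 23 had a rho of at least 0.5 with this outside score, against 0.333% of the genes not in it, members included, and 0.121% of the genes in neither list. The median was 0.450 against 0.0315 for genes in neither list. Ube2c had the highest value, 0.807, followed by Top2a (0.758), Aurka (0.724), Ccnb1 (0.714) and Kif11 (0.706). Cbx5 (0.0328), Ccnb2 (0.0604) and Lbr (0.0980) had the lowest.

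S-phase genes act in DNA replication, just before G2. Of 43 such genes, all measured, 0 reached 0.5 with the member score, near the background of 0.24%, and the median was 0.0728 against 0.0390 for all genes outside the members. The members' own values with the S-phase score ran from -0.165 for Nusap1 to 0.354 for Psrc1, with 20 of 54 below 0, and 0 reached 0.5, near the 0.037% of other genes. The 2 scores had a rho of 0.0801 and a Pearson r of 0.437 over 61 cells. Without G03 and G09 these were -0.0157 and 0.255, and without B06 and F09 as well -0.125 and 0.0361, so the Pearson value rests on those cells. The 4 cells were among the 5 lowest for the S-phase score too, which ran from -1.28 in G09 to 0.691. In the cell highest for members, B03, the S-phase score was -0.302, and in the next 2, D02 and G01, it was 0.0333 and -0.172.

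**Figure D5:**
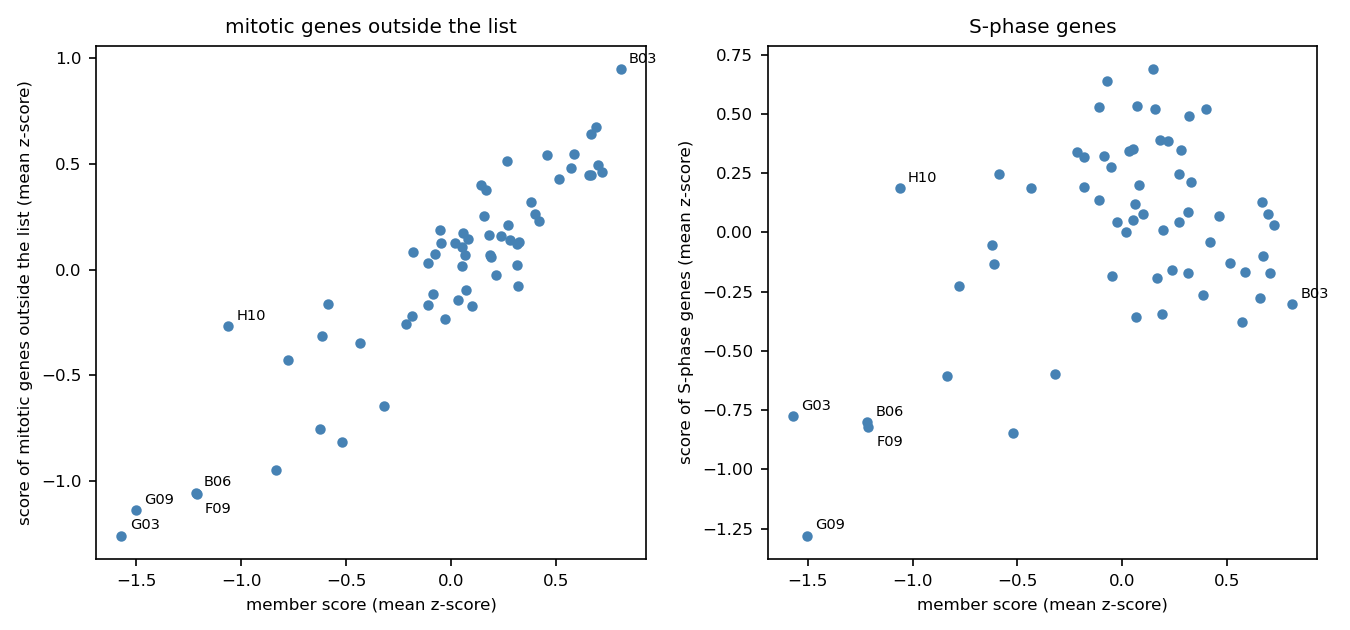
Each dot is 1 of 61 cells, placed by the member score (x axis) and by the score of 52 mitotic genes outside the list (left) or of 43 S-phase genes (right), each a mean z-score of log2(CPM + 1). The left panel rises along a line (rho 0.876), while in the right panel the wells G03, G09, B06 and F09 are low on both axes and the other cells show no line.

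The genes outside the list that were most like the member score were ranked next. Among 7585 genes with counts in at least 30 cells, the highest rho were those of Prc1 (0.739), a bundler of central spindle microtubules, Incenp (0.715), the scaffold of the chromosomal passenger complex, and Spc25 (0.691), a partner of NDC80. Incenp had its closest member in Top2a (0.732) and Spc25 in Mki67 (0.641). Next came Arl6ip1 (0.645), which shapes membranes of the endoplasmic reticulum, Ccnb1-ps (0.644), the cohesin acetyltransferase gene Esco2 (0.618), the spindle gene Fam83d (0.586), the alpha-tubulin gene Tuba1c (0.586), Parpbp (0.584) and the kinetochore gene Cenpi (0.573). Without the 4 low cells they ran from 0.524 (Cenpi) to 0.747 (Arl6ip1). The lowest rho was that of Ung (-0.469), the uracil-DNA glycosylase gene and a member of the S-phase list, and it was -0.559 without those cells. R3hdm4 (-0.384), the histone gene Hist1h2bc (-0.383), the cargo receptor gene Tmed2 (-0.370) and the lysosomal gene Lamp1 (-0.356) followed.

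Whole lists of related genes were read against the same score, for which 0.24% of genes outside the members reached 0.5 and the median was 0.0390. Of the 52 mitotic genes outside the list 10 reached 0.5, with a median of 0.403, and Ncapg, a condensin subunit, had 0.566. Without the 4 low cells 5 did, with a median of 0.323. The lowest in that list were Pif1 (-0.00830), Nde1 (0.0169), Kif18b (0.0784), Mxd3 (0.101) and Mybl2 (0.104), the last a partner of MuvB. None of the 12 MuvB, E2F and NF-Y genes (median 0.123, highest 0.357), the 15 APC/C genes (median 0.0672, highest 0.422) or the 13 measured G1 cyclin, CDK and inhibitor genes (median -0.0157, highest 0.200) reached 0.5; at that background share a count of 0 in lists this short says nothing about them.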

How the data were processed

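The labels' protocols name G&T-seq for the parting of RNA and DNA and Nextera XT for the sequencing libraries. Tools named in the submitters' processing notes are GSNAP, SAMtools (0.1.18), bedtools (2.19.1) and, with no version, DESeq2, and the build is GRCm38. How reads were counted, on which annotation and with or without strand is not given in the sources used here. Of the members 13 share exon bases with another counted gene, and counts of gene families are uncertain. The deposited raw table gives a count per gene and cell and was the basis of every result. The deposited normalized table gives a signal per gene, raw counts times the authors' size factors, per its values, which run down the rows and do not stay with a cell; it was an alternative only. Symbols, positions and exon lengths are from GENCODE M21, promoters from RefSeq.

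A gene was kept if 10 or more cells had 10 or more counts of it, and CPM used TMM factors of edgeR 4.0.16. Correlations are Spearman rho of log2(CPM + 1). The trend of the squared coefficient of variation was a running median over 301 genes. Procedures were tested on simulated data. Reads carry no named molecular identifiers. No comparison between groups was made. The members, gene lists, pairs and thresholds (rho 0.5, ratio 2) were chosen with earlier results of these data known. Named genes are all members, the 10 highest and 5 lowest other genes by rho, and the 5 at each end of the outside list.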

Additional observations from a re-analysis of the deposited data

How the results depend on the processing

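Of 12 other settings (DESeq2 size factors, 2 other filters, pseudocount 10, Pearson r, thinning, regression on genes detected, cells left out, plate rows, the deposited normalized table) and 1 chosen after seeing the data (without G03, G09, B06 and F09), none changed the number of measured members where it was counted. The median pairwise rho ran from 0.192 to 0.279, members at 0.5 or above with the other members from 20 to 32, with outside mitotic genes from 18 to 31, and members with a ratio of at least 2 from 8 to 15; all moved by less than 1.5 times or 1 SD over members. Member pairs at 0.5 or above numbered 213 in plate rows E to H, with fewer cells, and 66 without the 4 cells. The rho of member and S-phase scores was 0.437 with Pearson r, 0.259 with the deposited normalized table and -0.131 without the 4 cells, with scores computed anew. The range of summed CPM was 4.74-fold without the 4 cells. The causes of these shifts, the number of cells among them, were not tested. No paired analysis was possible because all cells are of 1 group. Thinning every cell to the smallest total left Nek2 with counts in the same number of cells, 32.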
